A study of Sus scrofa with 8 samples.

Results

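Aminoacyl-tRNA synthetases and the scaffold proteins that hold several of them together were followed across porcine lymphoma clones and normal splenocytes. Members were chosen by name, as every row whose symbol is an amino acid letter followed by ARS, ARS1 or ARS2, plus EPRS, FARSA, FARSB, AIMP1, AIMP2 and EEF1E1. This gave 38 of the 22366 features in the table, of which 19 were cytosolic enzymes, 16 were mitochondrial enzymes and 3 were scaffold proteins. FARSB was not analysed here. AARS1, NARS2, SARS2, YARS2 and EEF1E1 were matched through their Ensembl IDs, and the other 33 carried their symbol.

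The study established a porcine B cell lymphoma line and sequenced RNA, with paired reads on an Illumina HiSeq, from 8 libraries. Lymphoma clones supplied 6 of them, 4 grown out of a lymph node tumour and 2 grown out of a spleen tumour. The tumour cells were dissociated by hand, grown in RPMI medium and taken through 4 rounds of limiting dilution, so each library is a cultured clonal population and not tumour tissue. Magnetic enrichment of splenocytes supplied the controls, 1 library of CD21+ cells standing for normal B cells and 1 library of CD3+ cells standing for normal T cells. The labels give no breed, genotype, age or number of animals for any group, and a p-value here reflects no more than the variation from clone to clone.

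Each aminoacyl-tRNA synthetase joins an amino acid to the tRNAs that carry it to the ribosome. In mammals the enzymes for the cytosol and those for the mitochondrion are nearly all encoded by separate nuclear genes, and the mitochondrial set carries the suffix ARS2. GARS and KARS serve both compartments, EPRS charges glutamate and proline tRNAs in a single protein, and a group of the cytosolic enzymes is bound with AIMP1, AIMP2 and EEF1E1 in the multisynthetase complex. In human and mouse cells a subset of the cytosolic genes is described as induced by ATF4, the transcription factor of the amino acid response. That subset is called the ATF4-linked enzymes here and holds AARS1, CARS, EPRS, GARS, IARS, LARS, MARS, NARS, SARS, TARS, WARS and YARS. The other cytosolic members are DARS, FARSA, HARS, KARS, QARS, RARS and VARS. This split was chosen with earlier results of these data known, so it is not independent of the values below.

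Libraries held 16415644 to 27253505 counts, and the 38 members took up 0.443 ± 0.0356% of a clone's counts (SD, n = 6), with 0.328% for the CD21+ library and 0.229% for the CD3+ library. The share of mitochondrially encoded transcripts was 7.07 ± 0.562% in the clones, 10.9% for the CD21+ library and 21.6% for the CD3+ library. The summed level of 8 B cell markers was 3861 to 4908 counts-per-million (CPM) in the clones, 6143 CPM in the CD21+ library and 149 CPM in the CD3+ library. CR2, the gene of CD21 itself, was not among the features matched. The summed level of 9 T cell markers was 55.5 to 78.8 CPM in the clones, 152 CPM in the CD21+ library and 7462 CPM in the CD3+ library. For 7 myeloid markers the sums were 83.8 to 125 CPM in the clones, 218 CPM in the CD21+ library and 615 CPM in the CD3+ library. They did not move together, with 1 of 7 higher and 5 lower against the CD21+ library and 2 of the 6 tested higher and 3 lower against the CD3+ library. CD163 was at 0 in all 6 clones and MPO, at 1.36 to 16.6 CPM in the clones, was at 0 in both controls. CSF1R averaged 38.7 ± 6.83 CPM in the clones, against 26.6 CPM in the CD21+ library and 12.9 CPM in the CD3+ library. For 8 proliferation genes they were 2226 to 2920 CPM in the clones, 895 CPM in the CD21+ library and 399.6 CPM in the CD3+ library. These differences in cell makeup and proliferation move with every comparison to a control, and their part in the results on the synthetases was not tested. The clones were also grown in culture, and no culture step is described here for the enriched splenocytes. Lymphoma and culture therefore cannot be told apart in these comparisons. In bulk libraries, fewer cells of a type and less RNA per cell cannot be told apart.

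The clones were compared with the CD21+ library to ask how cultured lymphoma clones differ from enriched normal B cells. Levels are CPM scaled by TMM factors, which make libraries of different composition comparable. Calls are from edgeR's quasi-likelihood test at a Benjamini-Hochberg adjusted p of 0.05 over 13498 genes. Of the 38 members, 13 were higher and 11 lower in the clones, and 14 did not pass. Over all genes tested, 67.2% were called, 34.8% higher and 32.4% lower, so the members as a whole were called about as often as any gene. With total-count scaling the members gave 15 higher and 3 lower, and all genes gave 6190 higher and 3093 lower. The cytosolic enzymes were also counted by the ATF4-linked split, which was chosen with earlier results of these data known. Of the 12 ATF4-linked enzymes 7 were higher and 0 lower, with a median log2 fold change of 0.65, and of the 7 others 0 were higher and 3 lower, with a median of -0.19. With upper-quartile or total-count scaling 0 cytosolic enzymes were called lower. The median over all genes was 0.05.

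GARS, the glycyl-tRNA synthetase (chromosome 18, 42311711 to 42352201, Sscrofa11.1), had the largest change of the cytosolic enzymes. It stood at 219.6, 376, 423 and 272 CPM in lymph node clones 1 to 4 and at 251 and 328 CPM in spleen clones 1 and 2, against 105 CPM in the CD21+ library. Every clone lay above the CD21+ library, with a log2 fold change of 1.56 ± 0.36 (approximate SE, edgeR adjusted p = 0.00497). CARS, the cysteinyl-tRNA synthetase (chromosome 2, 2119576 to 2163378), stood at 44.2, 56.5, 52.3 and 31.6 CPM in the lymph node clones and at 32.3 and 36.7 CPM in the spleen clones. The CD21+ library, at 18.4 CPM, was below all of them, and the log2 fold change was 1.18 ± 0.35 (edgeR adjusted p = 0.0162). AARS1, which charges alanine tRNAs, had 137, 164, 157 and 124 CPM in the lymph node clones and 117 and 129 CPM in the spleen clones, against 73.1 CPM in the CD21+ library. Its log2 fold change was 0.90 ± 0.19 (edgeR adjusted p = 0.00316), and no clone overlapped the control.

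TARS, the threonyl-tRNA synthetase, had 127, 153, 154 and 107 CPM in the lymph node clones and 102 and 114 CPM in the spleen clones, against 70.6 CPM in the CD21+ library. It was higher in 6 of 6 clones, by a log2 fold change of 0.82 ± 0.24 (edgeR adjusted p = 0.0171). MARS, the methionyl-tRNA synthetase (chromosome 5, 22752405 to 22785509), had 152, 169, 166 and 120.0 CPM in the lymph node clones and 116 and 131 CPM in the spleen clones, against 89.5 CPM in the CD21+ library. Its log2 fold change was 0.65 ± 0.22 (edgeR adjusted p = 0.0294). The MARS locus shares 9775 bases with ARHGAP9, a GTPase-activating protein gene, in the RefSeq annotation. ARHGAP9 averaged 10.4 ± 1.42 CPM in the clones, against 233 CPM in the CD21+ library and 406 CPM in the CD3+ library, so it differed in the direction opposite to MARS, and any part it has in the MARS counts was not tested. IARS and EPRS also passed, with log2 fold changes of 0.64 and 0.48.

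The remaining ATF4-linked enzymes did not pass. WARS, the tryptophanyl-tRNA synthetase and an interferon target in human cells, had 71.0, 96.5, 111 and 46.0 CPM in the lymph node clones and 48.7 and 60.3 CPM in the spleen clones. The CD21+ value of 57.9 CPM lay inside that range, and the log2 fold change was 0.31 ± 0.46 (edgeR adjusted p = 0.575). SARS, the seryl-tRNA synthetase, was above the control in all 6 clones, at 95.5 to 168 CPM against 80.9 CPM in the CD21+ library. Its spread between clones was wide, and the log2 fold change of 0.68 ± 0.33 did not pass (edgeR adjusted p = 0.100). Among the enzymes outside the ATF4-linked subset, QARS, RARS and DARS were lower, with log2 fold changes of -0.44, -0.27 and -0.19. QARS and DARS lost their call when lymph node clone 2 or 3 or either spleen clone was left out. KARS, the lysyl-tRNA synthetase, had 648, 677, 689 and 789.8 CPM in the lymph node clones and 684 and 712 CPM in the spleen clones, against 734 CPM in the CD21+ library. It did not pass (log2 fold change -0.08, edgeR adjusted p = 0.516).

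**Figure D1:**
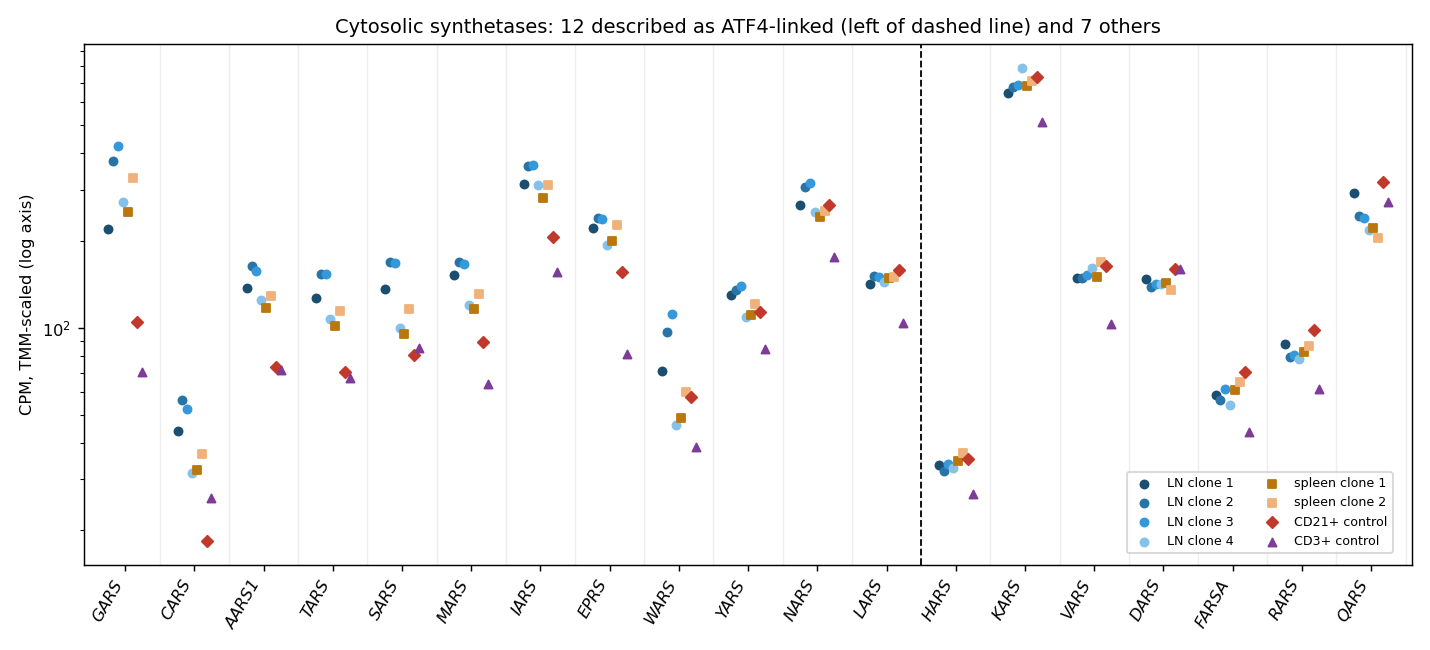
Levels of the 19 cytosolic enzymes in each library as TMM-scaled CPM on a log axis, with circles for lymph node clones, squares for spleen clones, a diamond for the CD21+ library and a triangle for the CD3+ library. For GARS every clone lies at 219.6 CPM or more, above 105 CPM in the CD21+ library and 70.7 CPM in the CD3+ library, while KARS in the CD21+ library (734 CPM) lies among the clones.

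Of the 16 mitochondrial enzymes 5 were higher and 7 lower in the clones, where 34.8% of all genes tested were higher and 32.4% lower. Their median log2 fold change was -0.16, and with total-count scaling it was 0.14. NARS2, the mitochondrial asparaginyl-tRNA synthetase (chromosome 9, 12869347 to 13010897), had 40.5, 52.6, 45.5 and 66.3 CPM in the lymph node clones and 51.1 and 56.7 CPM in the spleen clones. The CD21+ library had 15.7 CPM, below every clone, and the log2 fold change of 1.72 ± 0.26 was the largest of all 38 members in this comparison (edgeR adjusted p = 0.000501). YARS2, its counterpart for tyrosine (chromosome 5, 41561563 to 41584534), had 46.4, 51.0, 50.3 and 53.1 CPM in the lymph node clones and 45.03 and 53.1 CPM in the spleen clones, against 21.1 CPM in the CD21+ library. The clones lay close together and all above the control, with a log2 fold change of 1.23 ± 0.12 (edgeR adjusted p = 4.52e-05). YARS2 shares 13481 bases with DNM1L, a gene of mitochondrial division, which averaged 103 ± 5.90 CPM in the clones and stood at 104 CPM in the CD21+ library. MARS2, the mitochondrial methionyl-tRNA synthetase, had 14.3, 15.0, 13.2 and 13.7 CPM in the lymph node clones and 14.4 and 15.1 CPM in the spleen clones. The CD21+ library had 8.12 CPM, giving a log2 fold change of 0.80 ± 0.14 (edgeR adjusted p = 0.00112).

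On the lower side, SARS2, which charges mitochondrial serine tRNAs (chromosome 6, 47717363 to 47728394), had 16.7, 14.3, 14.3 and 13.0 CPM in the lymph node clones and 13.7 and 14.4 CPM in the spleen clones, against 27.1 CPM in the CD21+ library. All clones lay below the control, with a log2 fold change of -0.93 ± 0.13 (edgeR adjusted p = 0.000408). TARS2, the mitochondrial threonyl-tRNA synthetase (chromosome 4, 98622235 to 98635318), had 26.0, 26.97, 24.3 and 24.8 CPM in the lymph node clones and 24.9 and 24.6 CPM in the spleen clones, against 45.8 CPM in the CD21+ library. Its log2 fold change was -0.87 ± 0.08 (edgeR adjusted p = 4.05e-05), and no clone overlapped the control. TARS2 shares 10847 bases with ECM1, an extracellular matrix protein gene, which averaged 1.07 ± 0.177 CPM in the clones and stood at 4.20 CPM in the CD21+ library. IARS2, CARS2, VARS2, EARS2 and HARS2 were also lower, with log2 fold changes between -0.64 and -0.31. RARS2 was higher, by a log2 fold change of 0.40.

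**Figure D2:**
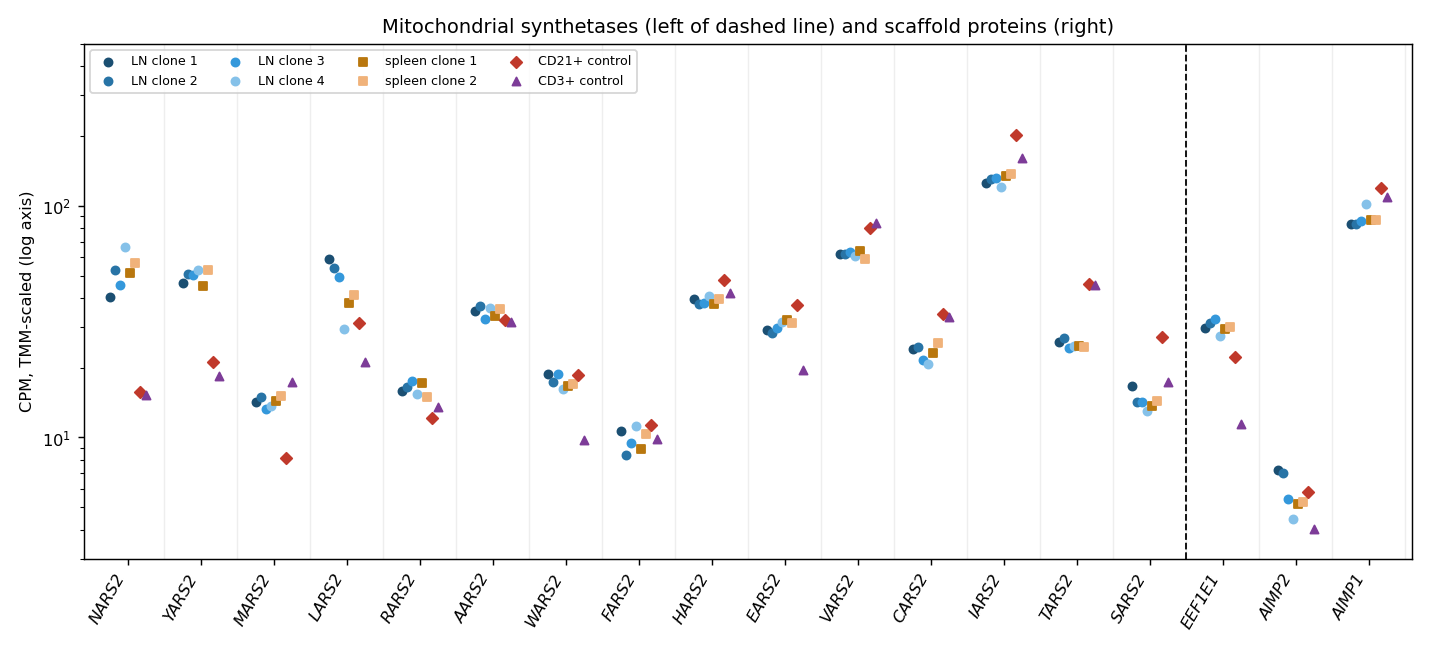
Levels of 15 mitochondrial enzymes and, right of the dashed line, the 3 scaffold proteins in each library as TMM-scaled CPM on a log axis, with the same symbols for lymph node clones, spleen clones and the CD21+ and CD3+ libraries. NARS2 and YARS2 lie at 40.5 CPM or more in every clone and at 21.1 CPM or less in both controls, and TARS2 lies at 26.97 CPM or less in every clone and at 45.6 CPM or more in both controls.

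The scaffold proteins did not share a direction. EEF1E1, also known as AIMP3 (chromosome 7, 5368341 to 5390665), had 29.7, 31.2, 32.6 and 27.5 CPM in the lymph node clones and 29.3 and 30.1 CPM in the spleen clones, against 22.3 CPM in the CD21+ library. It was higher in every clone, with a log2 fold change of 0.42 ± 0.11 (edgeR adjusted p = 0.00829). AIMP1, which is also the precursor of a secreted cytokine (chromosome 8, 115437453 to 115476735), had 83.3, 83.4, 85.8 and 102 CPM in the lymph node clones and 87.1 and 86.9 CPM in the spleen clones, against 119.9 CPM in the CD21+ library. It was lower in every clone, with a log2 fold change of -0.46 ± 0.11 (edgeR adjusted p = 0.0065). AIMP2, the third scaffold, had 7.24, 7.05, 5.41 and 4.45 CPM in the lymph node clones and 5.16 and 5.28 CPM in the spleen clones, with 5.84 CPM in the CD21+ library, inside the range of the clones. Over the 11 components of the multisynthetase complex, scaffolds included, 4 were higher (EPRS, IARS, MARS and EEF1E1), 4 were lower (DARS, QARS, RARS and AIMP1) and 3 did not pass, close to the 34.8% higher and 32.4% lower of all genes tested. Grouped by the fold of the catalytic domain, 3 of 9 class I enzymes were higher and 2 lower, and 3 of 9 class II enzymes were higher and 1 lower, so neither class was called more often than all genes.

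Compared with the CD3+ library, more of the synthetases were higher in the clones. The same 6 clones enter this comparison, so its values are not independent of those above. Of the 38 members, 21 were higher, 7 lower and 10 did not pass, where 72% of the 13560 genes tested were called, 36.8% higher and 35.1% lower. With total-count scaling the members gave 29 higher and 1 lower, and all genes gave 6854 higher and 3114 lower. Of the cytosolic enzymes 14 of 19 were higher and 1 lower, and the ATF4-linked enzymes gave 9 of 12 higher and 0 lower, with a median log2 fold change of 0.87. The 7 other cytosolic enzymes gave 5 higher and 1 lower, with a median of 0.39, where the median over all genes was 0.05.

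GARS was again the furthest, at 70.7 CPM in the CD3+ library and at 219.6 CPM or more in every clone, with a log2 fold change of 2.10 ± 0.38 (edgeR adjusted p = 0.00116). EPRS, the bifunctional enzyme (chromosome 10, 9579301 to 9648416), had 221, 239.6, 237 and 192 CPM in the lymph node clones and 199 and 226 CPM in the spleen clones. The CD3+ library had 81.5 CPM and the CD21+ library 156 CPM. Its log2 fold change was 1.39 ± 0.15 over the CD3+ library (edgeR adjusted p = 5.34e-05), against 0.48 ± 0.13 over the CD21+ library (edgeR adjusted p = 0.0130). IARS, the isoleucyl-tRNA synthetase, had 314, 362, 365 and 309.9 CPM in the lymph node clones and 281 and 311 CPM in the spleen clones. It stood at 155 CPM in the CD3+ library and at 206 CPM in the CD21+ library, below every clone in both, and its log2 fold change over the CD3+ library was 1.02 ± 0.15 (edgeR adjusted p = 0.000437). For MARS, with 63.9 CPM in the CD3+ library, the log2 fold change was 1.12 ± 0.23. AARS1, with 71.7 CPM there, gave 0.91 ± 0.19, almost the value it had over the CD21+ library. KARS, which did not pass against the CD21+ library, was higher than in the CD3+ library (513 CPM, log2 fold change 0.41, edgeR adjusted p = 0.00971). DARS, with 135 to 147 CPM in the clones, 160.0 CPM in the CD21+ library and 160.1 CPM in the CD3+ library, was the cytosolic enzyme called lower. That call was lost without lymph node clone 2 (edgeR adjusted p = 0.0510). WARS, at 38.7 CPM in the CD3+ library, lay below every clone but did not pass (log2 fold change 0.86 ± 0.49, edgeR adjusted p = 0.144).

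Among mitochondrial enzymes 6 were higher and 5 lower of 16 against the CD3+ library, near the 36.8% higher and 35.1% lower of all genes tested. NARS2 and YARS2 stood at 15.3 and 18.4 CPM there, close to their CD21+ levels, and gave log2 fold changes of 1.73 ± 0.26 and 1.40 ± 0.12. LARS2, the mitochondrial leucyl-tRNA synthetase, varied between clones, with 59.0, 53.8, 49.4 and 29.5 CPM in the lymph node clones and 37.95 and 41.4 CPM in the spleen clones. The CD3+ library had 21.1 CPM, below every clone, and the CD21+ library 31.2 CPM, above lymph node clone 4. LARS2 passed against the CD3+ library (log2 fold change 1.05 ± 0.35, edgeR adjusted p = 0.0258) and not against the CD21+ library (0.52 ± 0.33, edgeR adjusted p = 0.194). Without lymph node clone 4 it also passed against the CD21+ library (edgeR adjusted p = 0.0455). TARS2, at 45.6 CPM in the CD3+ library, was lower in the clones by nearly the same log2 fold change as before, -0.89 ± 0.09 (edgeR adjusted p = 3.19e-05). MARS2 took opposite signs in the comparisons, since the clones lay between the controls, with 17.4 CPM in the CD3+ library. It was lower than in the CD3+ library by a log2 fold change of -0.33 ± 0.12 (edgeR adjusted p = 0.0387), a call lost when any of lymph node clones 1, 2 or 3 or spleen clone 1 was left out.

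The scaffold proteins kept their mixed directions against the CD3+ library. EEF1E1 stood at 11.5 CPM there, and its log2 fold change was 1.35 ± 0.12 (edgeR adjusted p = 2.18e-05). AIMP1 stood at 109.6 CPM and was lower in the clones (log2 fold change -0.35 ± 0.11, edgeR adjusted p = 0.0208). AIMP2, at 4.01 CPM, did not pass (0.48 ± 0.31, edgeR adjusted p = 0.193). Of the 11 components of the multisynthetase complex 7 were higher and 2 lower, where 36.8% of all genes tested were higher and 35.1% lower. By class, 6 of 9 class I enzymes were higher and 0 lower, and 7 of 9 class II enzymes were higher and 1 lower. Scaling by total counts instead of TMM moved the median of all genes to 0.35 against the CD21+ library and to 0.51 against the CD3+ library. Under that scaling DARS, RARS, IARS2, MARS2 and AIMP1 each changed sign in at least 1 of the comparisons in which they were called lower.

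**Figure D3:**
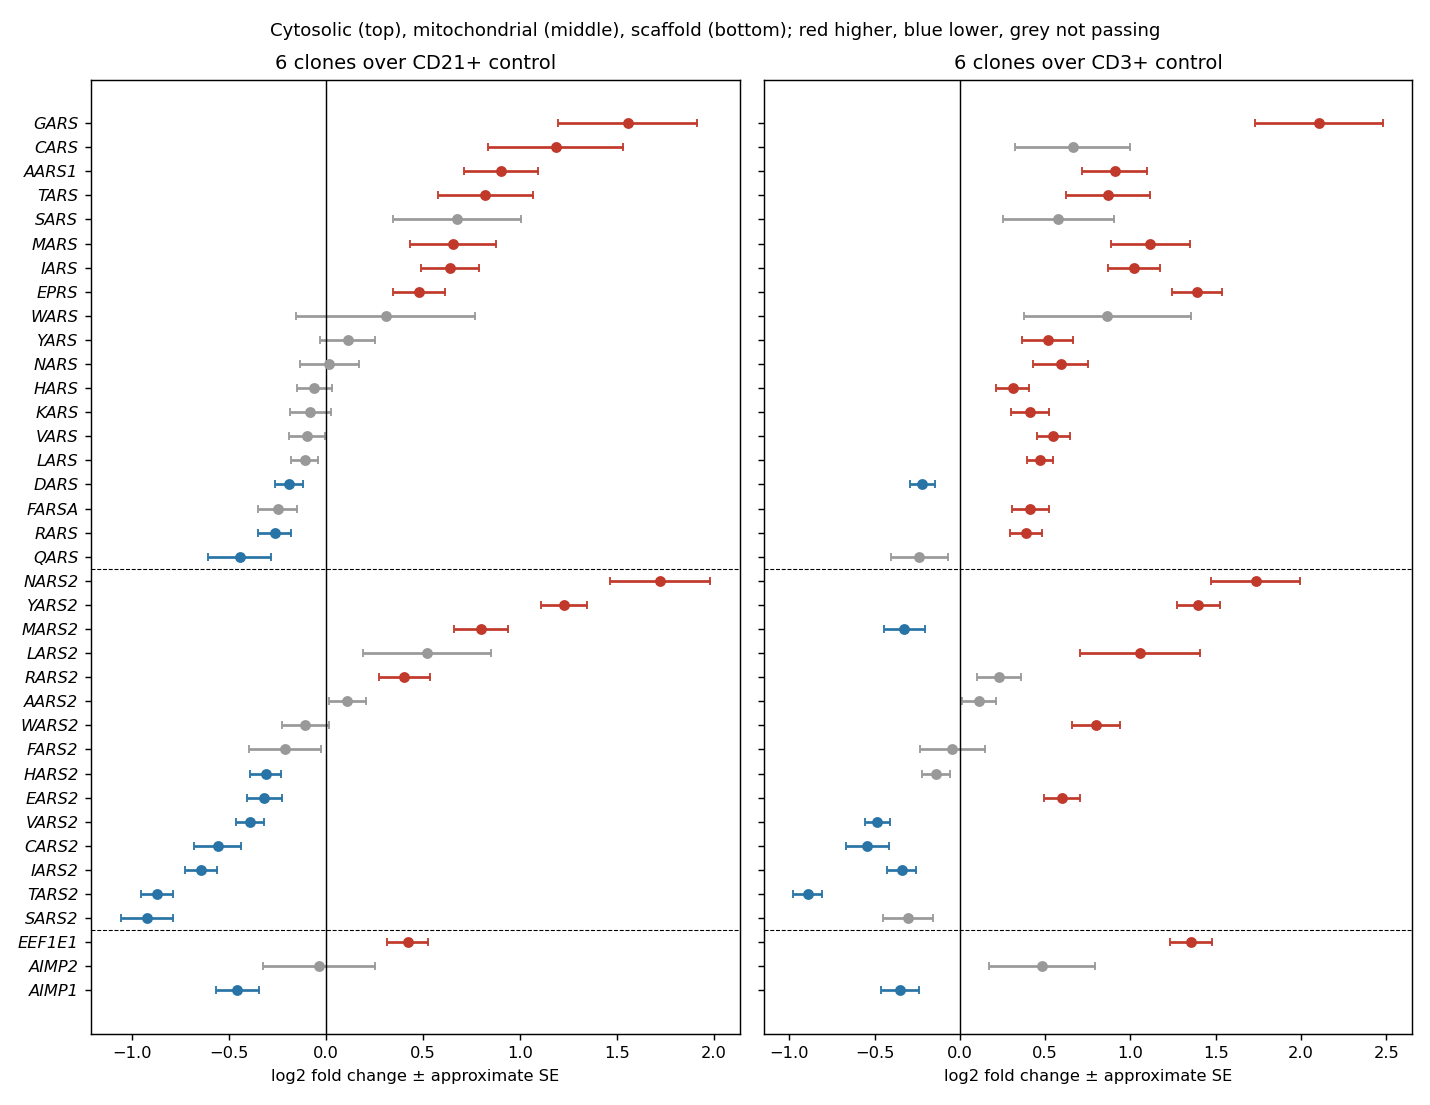
Log2 fold change of the 6 clones over the CD21+ library (left) and over the CD3+ library (right) for 37 members, with bars for the approximate SE, red for members called higher, blue for members called lower and grey for members that did not pass. GARS (1.56 and 2.10) and NARS2 (1.72 and 1.73) lie furthest to the right in both panels, and the point furthest to the left is SARS2 over the CD21+ library (-0.93) and TARS2 over the CD3+ library (-0.89).

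Cytosolic and mitochondrial enzymes were set against each other within each library. Summed CPM of the 2 sets also depend on transcript length, so only their change between libraries is described. The cytosolic sum was 3457 ± 279 CPM in the clones (SD, n = 6), 2975 CPM in the CD21+ library and 2203 CPM in the CD3+ library. The mitochondrial sum was 585 ± 9.55 CPM in the clones, 638 CPM in the CD21+ library and 548 CPM in the CD3+ library. The ratio of the sums, which does not depend on scaling between libraries, was 5.78, 6.30, 6.62 and 5.70 in lymph node clones 1 to 4 and 5.41 and 5.66 in spleen clones 1 and 2. It was 4.66 for the CD21+ library and 4.02 for the CD3+ library, below every clone. As a difference of log2 ratios, the clones lay 0.34 above the CD21+ library and 0.55 above the CD3+ library. GARS and KARS, which serve both compartments, were counted as cytosolic. Leaving both out moved each difference by less than 0.109, the SD of the clones' log2 ratio. Without the 12 ATF4-linked enzymes, an alternative chosen after seeing the data, these differences were -0.04 and 0.16. The ATF4-linked sum over that of the other cytosolic enzymes was 1.46 ± 0.226 in the clones, 0.883 for the CD21+ library and 0.869 for the CD3+ library. No test was made of these ratios, since they are scores over chosen genes and each control is a single library.

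**Figure D4:**
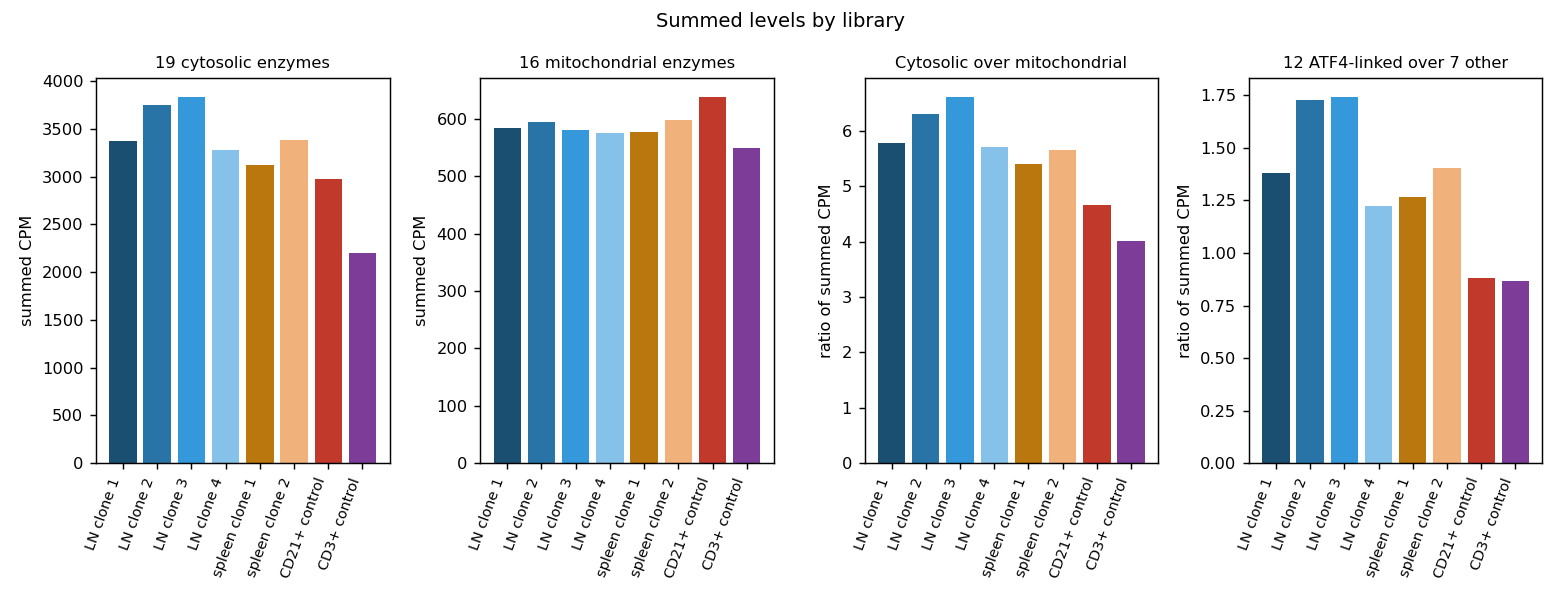
Bars give, for each library, the summed TMM-scaled CPM of the 19 cytosolic enzymes, that of the 16 mitochondrial enzymes, the ratio of these sums, and the ratio of the 12 ATF4-linked to the 7 other cytosolic enzymes. The cytosolic over mitochondrial ratio is 5.41 to 6.62 in the clones, 4.66 for the CD21+ library and 4.02 for the CD3+ library, and the ATF4-linked ratio is 1.22 to 1.74 in the clones, 0.883 for the CD21+ library and 0.869 for the CD3+ library.

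For 16 amino acid pairings of a cytosolic with a mitochondrial enzyme, the cytosolic partner had the larger log2 fold change in 9 against the CD21+ library and in 12 against the CD3+ library. Threonine showed a wide gap on the cytosolic side, with log2 fold changes over the CD21+ library of 0.82 for TARS and -0.87 for TARS2. For cysteine the values were 1.18 for CARS and -0.56 for CARS2. Serine gave 0.68 for SARS, which did not pass, and -0.93 for SARS2. Isoleucine gave 0.64 for IARS and -0.64 for IARS2. Asparagine and tyrosine had the reverse order, with 0.02 for NARS against 1.72 for NARS2, and 0.11 for YARS against 1.23 for YARS2. Over the CD3+ library the gap was 1.76 for threonine and -1.14 for asparagine, cytosolic minus mitochondrial.

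Among the 6 clones, which were sequenced separately, the ATF4-linked enzymes varied most of the member sets. Their coefficient of variation over the clones had a median of 14.9% and reached 36.6% for WARS, against medians of 5.42% for the other cytosolic enzymes and 6.35% for the mitochondrial ones. The spread over all genes was not taken beside these medians. All 12 were highest in lymph node clone 2 or 3, with 6 in each. How many of all genes were highest in these clones was not counted. Over all genes, lymph node clones 2 and 3 were the pair with the most similar counts. Their chi-square per degree of freedom was 4.15, and the next lowest of any pair was 11.8. Of the 12, 6 were lowest in spleen clone 1, 4 in lymph node clone 4 and 2 in lymph node clone 1. LARS was the steadiest of the subset, with 142 to 151 CPM over the clones and a coefficient of variation of 2.58%. The other cytosolic enzymes had no member highest in lymph node clones 2 or 3. Among mitochondrial enzymes LARS2 varied most, with a coefficient of variation of 24.2%, and NARS2 followed with 17.2%.

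Whether the tissue of origin mattered was asked by setting the lymph node clones against those of the spleen. Of 12580 genes tested 0% were called, and 605 genes, or 4.81%, had an unadjusted p below 0.05 (edgeR). Of the 38 members 0 passed and 0 had an unadjusted p below 0.05. The member with the smallest p was TARS (log2 fold change 0.33 ± 0.16, edgeR adjusted p = 0.942), with 107 to 154 CPM in the lymph node clones and 102 and 114 CPM in the spleen clones. WARS had the largest log2 fold change, 0.58 ± 0.33 (edgeR adjusted p = 0.942). Lymph node clone 4 had 46.0 CPM of WARS, the lowest of all clones, so the tissues overlapped. DESeq2 called 11 genes higher and 9 lower and limma-voom 0, and in both 0 members were called. Leaving out lymph node clone 4 raised the genes with an unadjusted p below 0.05 to 1843 of 12471, or 14.8% (edgeR). In that fit 1 gene was called higher, and 0 members were called. With 4 clones against 2 a p that misses the threshold does not show that the tissues were alike.

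Genes of the amino acid response, from a list of 13, were compared between the clones as well. Of the 13, 10 were highest in lymph node clone 2 or 3, and here too the share over all genes was not counted. ASNS, asparagine synthetase, which was picked after its values were seen, had 244, 362, 331 and 167 CPM in the lymph node clones and 145 and 199 CPM in the spleen clones, against 28.7 CPM in the CD21+ library and 32.6 CPM in the CD3+ library. PSAT1, an enzyme of serine synthesis, had 218, 406, 431 and 104 CPM in the lymph node clones and 94.9 and 146 CPM in the spleen clones, against 2.97 CPM in the CD21+ library and 2.77 CPM in the CD3+ library. Lymph node clones 2 and 3 were the highest for both genes. CHAC1, a glutathione-degrading enzyme, had 21.5, 54.9, 47.8 and 11.01 CPM in the lymph node clones and 7.43 and 14.8 CPM in the spleen clones, against 0.411 CPM in the CD21+ library and 0.413 CPM in the CD3+ library. Its lowest clone, spleen clone 1, was also the lowest for PSAT1, ASNS and 6 of the ATF4-linked enzymes.

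**Figure D5:**
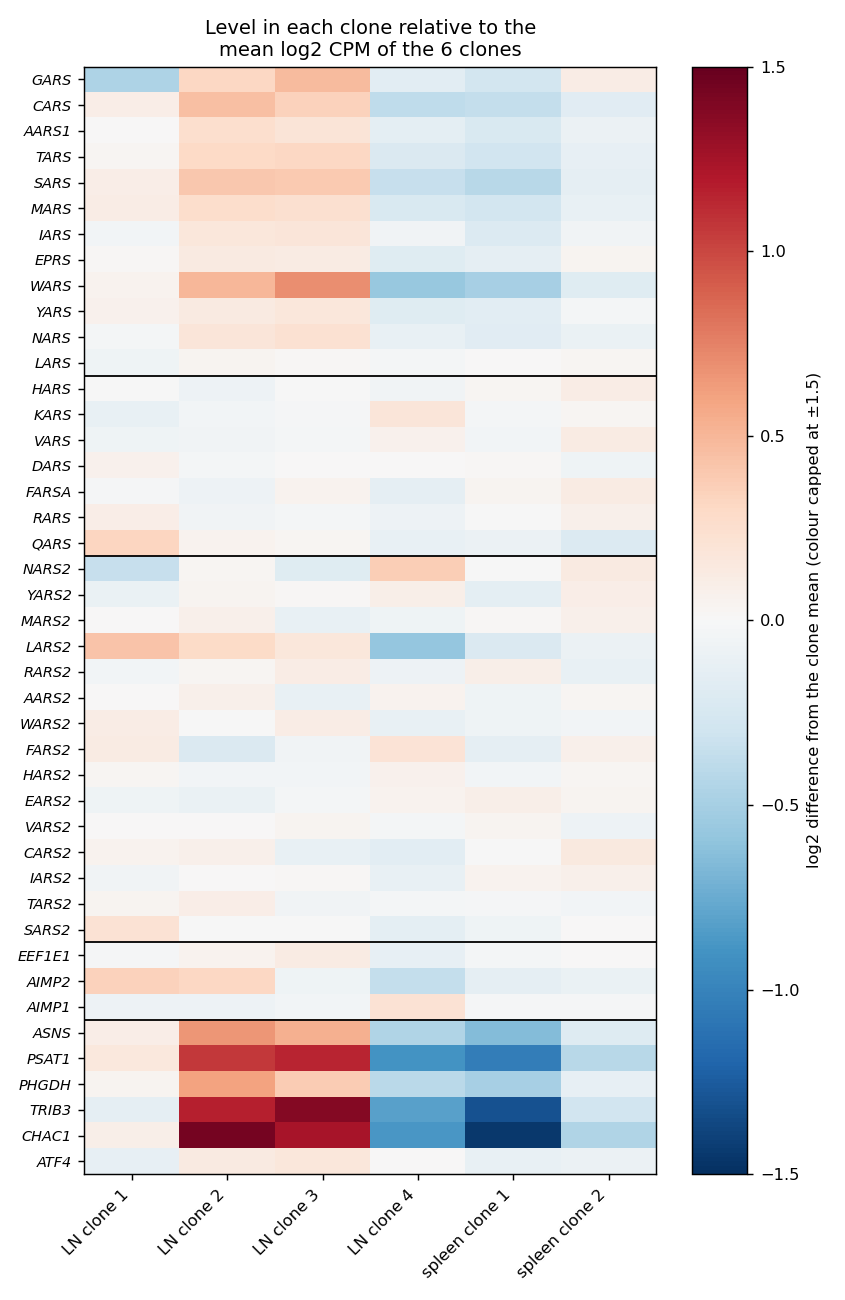
Colour gives the log2 level in each of the 6 clones relative to the mean log2 CPM of the clones (red above, blue below, capped at 1.5), with rows in blocks for the 12 ATF4-linked, the 7 other cytosolic, 15 mitochondrial and the 3 scaffold members and for 6 amino acid response genes. The ATF4-linked block and ASNS, PSAT1, PHGDH, TRIB3 and CHAC1 are red in lymph node clones 2 and 3 and mostly blue in lymph node clone 4 and the spleen clones, while the block of other cytosolic enzymes shows no such column.

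Against the CD21+ library, 8 of the 13 amino acid response genes were higher and 4 were lower (34.8% and 32.4% of all genes tested). The 4 called with the largest changes were STC2, PSAT1, VLDLR and CHAC1. STC2, a secreted glycoprotein induced by stress, averaged 16.2 ± 9.75 CPM in the clones and had no count in either control. From 3 counts per control library, the mean of the clones was at least 118-fold above the CD21+ library and at least 91.6-fold above the CD3+ library. Single clones ran from 2.15 CPM in lymph node clone 4 to 27.3 CPM in lymph node clone 3, so the bounds hold for the mean only. The log2 fold changes over the CD21+ library were 6.28 ± 1.35 for PSAT1, 6.23 ± 0.27 for VLDLR, a lipoprotein receptor, and 5.96 ± 1.81 for CHAC1 (edgeR adjusted p = 0.00356, 7.17e-07 and 0.0183). The 4 lower genes, named after their values were seen, were ATF4, DDIT3, CEBPB and GCN1. GCN1 was lower by a log2 fold change of -0.22 over the CD21+ library (edgeR adjusted p = 0.0378). It was higher over the CD3+ library (0.24, edgeR adjusted p = 0.0286). ATF4 itself averaged 397 ± 36.3 CPM in the clones, against 1063 CPM in the CD21+ library and 849 CPM in the CD3+ library, a log2 fold change of -1.43 ± 0.11 over the CD21+ library (edgeR adjusted p = 1.43e-05). DDIT3, the stress factor CHOP, averaged 7.54 ± 1.38 CPM in the clones, against 87.7 CPM in the CD21+ library and 29.7 CPM in the CD3+ library. CEBPB, a C/EBP transcription factor, averaged 12.6 ± 5.59 CPM in the clones, against 59.3 CPM in the CD21+ library and 87.1 CPM in the CD3+ library. Over the CD3+ library 8 of the 13 were higher and 3 lower, where 36.8% of all genes tested were higher and 35.1% lower.

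Other parts of the tRNA and translation machinery were read for comparison, beside shares over all genes of 34.8% higher and 32.4% lower against the CD21+ library and of 36.8% and 35.1% against the CD3+ library. Of 20 tRNA processing and export genes, 5 were higher and 4 lower against the CD21+ library, and 12 were higher and 1 lower against the CD3+ library. The counts against the CD21+ library lay below the shares over all genes. CLP1, a kinase of the tRNA splicing complex, had a log2 fold change of 1.22 ± 0.13 over the CD21+ library, with 20.8 to 24.6 CPM in the clones against 9.90 CPM. POP1, a subunit of RNase P, also had 1.22 ± 0.13. XPOT, the tRNA exporter, also picked after its values were seen, had 205 to 292 CPM in the clones, 251 CPM in the CD21+ library and 245 CPM in the CD3+ library, inside the range of the clones for both. Of 10 mitochondrial translation factors, 2 were higher and 4 lower against the CD21+ library, and 5 were higher and 4 lower against the CD3+ library. MTIF3, a mitochondrial initiation factor, averaged 11.9 ± 0.900 CPM in the clones, against 27.4 CPM in the CD21+ library (log2 fold change -1.22 ± 0.13). Of 10 genes that edit, modify or assist charged tRNAs, 4 were higher and 3 lower against the CD21+ library, near the shares over all genes. GATC had the largest log2 fold change of them, -2.06 ± 0.50 (edgeR adjusted p = 0.00628). Its level was very low, at 0.152 to 0.381 CPM in the clones and 1.05 CPM in the CD21+ library. In a clone, 3 counts equal 0.105 to 0.170 CPM, so this change rests on few reads. QRSL1, like GATC a subunit of the enzyme that makes mitochondrial glutaminyl-tRNA, averaged 26.7 ± 2.22 CPM in the clones, against 58.3 CPM in the CD21+ library (log2 fold change -1.14 ± 0.11). MTFMT, which formylates the mitochondrial initiator tRNA, averaged 14.5 ± 0.984 CPM in the clones, against 27.8 CPM in the CD21+ library and 34.7 CPM in the CD3+ library. Of 6 cytosolic elongation genes, 3 were higher and 2 lower against the CD21+ library.

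PARS2 and TARSL2 are synthetases that the naming rule does not take. PARS2, the mitochondrial prolyl-tRNA synthetase, averaged 15.98 ± 1.34 CPM in the clones, against 14.1 CPM in the CD21+ library and 12.9 CPM in the CD3+ library, and passed neither test. TARSL2, a paralogue of TARS, had 0.671 to 1.24 CPM in the clones and no count in either control. From 3 counts per control library the mean of the clones was at least 6.58-fold above the CD21+ library and at least 5.09-fold above the CD3+ library.

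The controls were compared with each other by fold alone, with the CD21+ library over the CD3+ library. Of the 38 members 0 were 2-fold or more higher and 1, MARS2, was 2-fold or more lower, where 13.8% of 11963 genes were that much higher and 16.9% that much lower. The median log2 ratio of the members was 0.40, with 32 of 38 higher in the CD21+ library, against a median of 0.01 over all genes. The median was 0.49 for the cytosolic and 0.19 for the mitochondrial enzymes. EPRS was among the higher ones, at 156 CPM in the CD21+ library and 81.5 CPM in the CD3+ library.

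The authors' deposited table compares the clones with the CD21+ library by a test of their own. At a false discovery rate below 0.05, the authors' deposited table called 12 members higher and 7 lower, where it called 25.3% of 16706 features higher and 25% lower. In the authors' deposited table the linear fold was 2.97 for GARS, 3.33 for NARS2, 2.36 for YARS2 and -1.81 for TARS2, with a minus sign for genes lower in the clones. SARS passed in the authors' deposited table, with a fold of 1.61, and did not in the test above. The reverse held for DARS, RARS, EARS2, HARS2, RARS2 and EEF1E1, which passed above and not in the authors' deposited table.

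In the Sscrofa11.1 annotation 37 members had coordinates, and 8 of these overlap another annotated gene. IARS2 shares 5051 bases with RAB3GAP2, at 169 ± 2.12 CPM in the clones, 192 CPM in the CD21+ library and 202 CPM in the CD3+ library. AIMP2 shares 3774 bases with EIF2AK1, at 54.2 ± 3.01 CPM in the clones, 54.6 CPM in the CD21+ library and 51.4 CPM in the CD3+ library. Any part of these genes in the IARS2 and AIMP2 counts was not tested. EPRS and IARS2 are neighbours on chromosome 10, 37224 bases apart with 2 genes between them. Their levels differed in opposite directions, with EPRS higher and IARS2 lower in the clones against both controls, except that IARS2 was higher than in the CD3+ library (log2 fold change 0.12) with total-count scaling.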

How the data were processed

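RNA was sequenced from 6 lymphoma clones and 2 control libraries. Trimmomatic, Bowtie2 and edgeR appear in the submitters' processing notes with no version, and Sscrofa11.1 in the design text. The sources used here do not name a counting tool, an annotation or the strandedness, and overlapping genes may therefore share reads. Per the file headers, the deposited tables hold read counts per gene and reads-per-million (RPM). The authors' deposited p-values (false discovery rates) and signed linear fold, a score with a minus sign for lower genes, were read as deposited. The 7 libraries that both tables hold carried identical counts. Ensembl IDs without a symbol were named from a gene name table, and 877 of 6841 matched.

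Gene counts went into the two-sided quasi-likelihood test of edgeR 4.0.16, with TMM factors, low counts removed by filterByExpr on the groups, and a Benjamini-Hochberg threshold of 0.05 over all genes. No pair of clones agreed within sampling noise (chi-square per degree of freedom 4.15 to 52.2), so none was taken for a repeat deposit of another. This does not show that the clones are independent. All 38 members passed the filter on low counts in each comparison. The spread came from the clones, and a lone control was assumed to vary like them. The approximate SE is the size of the log2 fold change divided by the root of the F statistic, and so adds nothing to the test. The steps were run on simulated counts, drawn independently for each library at a fixed dispersion. That checks the code and not the assumed spread of a lone control. DESeq2 1.42.0, limma 3.58.1, other scalings, filters and designs, and leaving out each clone were alternatives. Counts of 0 were bounded by 3 counts per library, which covers counting error only.

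Values in every library are given for the 5 cytosolic and 5 mitochondrial enzymes with the largest passing change per control, the 3 scaffolds, and WARS, EPRS, GARS and KARS. Of each related list the rule names at most 4 genes that pass, by size of change. ASNS, PHGDH, TRIB3, ATF4, DDIT3, CEBPB and GCN1 of the amino acid response list, XPOT, and the myeloid markers were named beyond it after their values were seen. The values of 1 mitochondrial member that the rule would name are not reported here, though it stays in the counts, medians and sums. Members and lists were chosen with earlier results of these data known. Coordinates are RefSeq's for Sscrofa11.1. Levels per length and promoter motifs, planned at the start, were not analysed here. Lists of class I, class II, accessory, processing, elongation and amino acid response genes were written by hand.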

Additional observations from a re-analysis of the deposited data

Results flagged for a closer look

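A Dixon test asked, for each of the 38 members, whether the highest or lowest clone stood apart from the others, in the 6 clones and again in the 4 lymph node clones. It flagged 3 of 76 groups, and chance flags about 1 in 20. SARS2 had 16.7 CPM in lymph node clone 1, against 13.0 to 14.4 CPM in the other 5 clones. AIMP1 had 102 CPM in lymph node clone 4, against 83.3 to 87.1 CPM in the other 5 clones, and this value was flagged in the 6 clones and in the 4 lymph node clones. All 6 clones stayed below the CD21+ library for both genes.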

How the results depend on the processing

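Of 24 members called against the CD21+ library 16 kept direction and call under all 15 alternatives, and of 28 called against the CD3+ library 21 did. Leaving out each clone in turn gave 13 to 14 members higher and 9 to 12 lower against the CD21+ library, and 21 higher and 5 to 8 lower against the CD3+ library. Ratio differences were then 0.31 to 0.36 and 0.52 to 0.58. Without lymph node clone 1, QARS and SARS2 passed as lower against the CD3+ library, and FARSA passed as lower against the CD21+ library without lymph node clone 4 or spleen clone 2. LARS2 lost its CD3+ call under limma-voom.

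Scaling mattered most. Against the CD21+ library the number of members called lower was 7 with upper-quartile and 3 with total-count scaling, and against the CD3+ library 1 with total-count scaling. Total-count scaling moved the median of all genes, and the signs below follow its construction. Against the CD21+ library it turned DARS to 0.11, FARSA to 0.052, HARS to 0.24, KARS to 0.22, LARS to 0.19, RARS to 0.035, VARS to 0.20, FARS2 to 0.087, WARS2 to 0.19 and AIMP2 to 0.27. Against the CD3+ library it turned DARS to 0.24, QARS to 0.22, FARS2 to 0.41, HARS2 to 0.31, IARS2 to 0.12, MARS2 to 0.13, SARS2 to 0.15 and AIMP1 to 0.10. Upper-quartile scaling turned HARS to 0.029, KARS to 0.0064 and AIMP2 to 0.054 against the CD21+ library, and FARS2 to 0.027 against the CD3+ library. AIMP2 ran from -0.11 to 0.024 with a clone left out, above 0 without lymph node clone 4. NARS, at 0.02, turned to -0.011 with RLE size factors and with DESeq2, and to -0.014 in the fit with 4 groups. With a clone left out it ran from -0.030 to 0.050, below 0 without lymph node clone 2 or 3. The cause of these changes around 0 was not tested.

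The cytosolic over mitochondrial difference was 0.20 against the CD3+ library with medians in place of sums. Without the ATF4-linked enzymes it was -0.040 against the CD21+ library and 0.16 against the CD3+ library.

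With the replicate block, over the 4 clones numbered 1 or 2, 5 members were called higher in the lymph node clones (CARS, MARS, SARS, WARS and LARS2), and 0 in the same 4 clones without it. Over all 12349 genes tested, the fit with the block called 259 higher and 86 lower, and the fit without it called 0. Deviations correlated at 0.26 for number 1 and -0.06 for number 2, but with 2 spleen clones the deviations of one mirror those of the other, so the check cannot show whether the numbers pair the clones. The labels do not say that they do, and the fit without the block is the one reported. Each control is a single library, which limits every comparison with it.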
